A study of Rattus norvegicus with 6 samples.

Results

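A group of miRNA genes on the rat X chromosome, miR-532, miR-188, miR-362, miR-501 and miR-500, was measured together with miR-3560, a gene annotated on the opposite strand across miR-501. Members were taken by name, all arms included, which gave 11 of the 1289 rows of a table of mature miRNA read counts from PC12, a line of rat adrenal pheochromocytoma cells that is widely used as a model of neuron-like cells. The names miR-502 and miR-660 were also sought, and none of the 11 rows carries them. The group was chosen by the known difference of rno-miR-188-5p between the groups of libraries and by the uneven counts of rno-miR-501-3p and rno-miR-3560, so all EN against EC values below are descriptions of rows picked with that contrast in view.

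The series holds 6 small RNA libraries, 3 of a group labelled EN and 3 of a group labelled EC. Its title names exosomes of endothelial cells engineered with Netrin-1, a secreted axon guidance protein, and repair of peripheral nerve. The labels spell out neither EN nor EC, and give no agent, dose or time for either, and both groups are the same cell line with no modification named. Nothing in the labels says that the 3 libraries of a group came from separate cultures, so the spread between them may be technical.

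MiRNA genes of this kind lie close together inside a host gene, and a hairpin cut from the transcript yields a 5p and a 3p strand, of which usually one is loaded into Argonaute and kept. The loaded strand pairs with messenger RNAs mainly through its seed, bases 2 to 8, and lowers their translation and stability. The host here is Clcn5, which encodes the endosomal chloride-proton exchanger ClC-5. In the RefSeq gene table of the GRCr8 assembly all 6 genes lay on chromosome X within the bounds of Clcn5, in the order miR-532, miR-188, miR-362, miR-3560, miR-501 and miR-500. Of these 6, only miR-3560 is on the minus strand. GRCr8 differs from the build named for the counts, so its coordinates are not given.

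RefSeq holds mature sequences for 10 of the 11 rows. They are shown because the seed decides which members could act on the same messages, and because 2 of the rows come from the same bases. The sequences below run 5′ to 3′ with the seed in capitals:
rno-miR-532-5p: cAUGCCUUgaguguaggacugu
rno-miR-532-3p: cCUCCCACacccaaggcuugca
rno-miR-188-5p: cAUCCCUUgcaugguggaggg
rno-miR-188-3p: cUCCCACAugcaggguuugc
rno-miR-362-3p: aACACACCuguucaaggauuca
rno-miR-501-5p: aAUCCUUUgucccuggguga
rno-miR-500-5p: aAUCCUUGcuaucugggugcuuag
rno-miR-501-3p: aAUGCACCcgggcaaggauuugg
rno-miR-500-3p: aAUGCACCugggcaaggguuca

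The 10 sequences carry 9 different seeds. MiR-500-3p and miR-501-3p share a seed, AUGCACC, and are identical in 18 of 22 aligned bases, with the first 8 the same. How the counting placed reads that match both is not known, so the split between these 2 rows is uncertain. The seed of miR-362-3p is shared by 1 known row outside the group, miR-329-3p of chromosome 6. No other seed of the group was found in another of the 530 known rows with a sequence. MiR-362-5p has no entry in the table of mature sequences.

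MiR-3560 and miR-501-3p are read from opposite strands of the same stretch. Capitals mark the 22 bases that are complementary between them, all of miR-3560 and all but the last base of miR-501-3p:
rno-miR-501-3p: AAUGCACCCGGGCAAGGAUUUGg
rno-miR-3560: CAAAUCCUUGCCCGGGUGCAUU

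Levels are given in CPM, miRNA counts scaled to a common library size after correction by TMM (trimmed mean of M-values) factors. The libraries held 4521694 to 5371351 miRNA counts in EN and 6153582 to 6554639 in EC. MiRNA counts made up 25.0 to 26.9 percent of the library total implied by the authors' RPM values in EN and 30.9 to 32.6 percent in EC. Values on that second scale are therefore lower in EN for most rows, and they are set beside the CPM where they differ in direction or call. Of the marker rows checked, the 10 neuronal and neuroendocrine rows summed to 37463 to 42782 CPM in EN and 25644 to 41624 in EC, most of it miR-204-5p. Several of them were low. MiR-124-3p was at or below 1.10 CPM in all 6 libraries, miR-375-3p at or below 3.19 and miR-96-5p at or below 3.97. MiR-183-5p reached at most 12.1 CPM and miR-182 at most 15.3. The 2 endothelial miR-126a rows summed to 1086 to 1228 CPM in EN and 1064 to 1143 in EC, and the 6 blood cell rows to 156 to 178.5 in EN and 94.5 to 127 in EC. Most of the blood cell sum was miR-150-5p, at 124 to 157 CPM in EN and 83.0 to 119 in EC, which was not called. Apart from it and miR-451-5p, the blood cell rows stood at or below 2.16 CPM. Of these, miR-142-3p and miR-142-5p reached higher in EC, and miR-144-3p and miR-223-3p reached higher in EN. Within these lists edgeR called miR-126a-5p lower in EN, at 28.5 to 39.3 CPM in EN and 56.8 to 66.2 in EC, and miR-451-5p higher, at 19.7 to 30.5 CPM in EN and 5.10 to 9.77 in EC. Neuronal miR-128-3p was also called higher, at 1119 to 1196 CPM in EN and 687 to 748 in EC. No other row of the neuronal and neuroendocrine list was called. Those tested had log2 fold changes from -1.60 (miR-183-5p) to 0.35 (miR-7a-5p). The 3 muscle rows reached 2.40 CPM in EN and 30.3 in EC, where 28.9 was miR-206-3p of 1 library, and liver miR-122-5p stood at 8.23 to 14.4 in EN and 5.95 to 9.74 in EC. The part of other cells in the values below was not tested.

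The guide strand of miR-532 was the most abundant member, and the group as a whole made up a small part of the miRNA pool. All 11 rows together took 0.168, 0.168 and 0.174 percent of miRNA counts in EN replicates 1, 2 and 3, and 0.243, 0.199 and 0.224 percent in EC replicates 1, 2 and 3. In CPM the sum was 1712 ± 40.5 in EN and 2206 ± 231 in EC (SD, n = 3), and the EN libraries lay below the EC libraries. The sum includes miR-188-5p, which was known to differ when the group was chosen. Among all rows tested, taken singly, 14.6 percent had the EN libraries below the EC libraries. Of the known rows, 584 in all, miR-532-5p ranked at 76 by mean level, and the next member, miR-500-3p, at 130.

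Over all 6 libraries the order of mean levels was miR-532-5p at 1002 CPM, miR-501-3p and miR-3560 summed at 305, miR-500-3p at 231, miR-188-5p at 156, miR-362-5p at 134.5 and miR-532-3p at 119. The gap below miR-532-5p held in 6 of 6 libraries with no overlap of the ranges. Of the neighbours from the summed pair down to miR-532-3p, the ranges over the 6 libraries overlapped in each case. By group means, the order of the last 3 of them differed between groups, though it did not hold in every library. In EN, miR-362-5p at 125 CPM stood above miR-188-5p at 103 and miR-532-3p at 66.8. EN replicate 2 departed from this, with miR-188-5p at 123.9 CPM and miR-362-5p at 122. In EC, miR-188-5p at 210 CPM stood above miR-532-3p at 171 and miR-362-5p at 144, and its range of 181 to 241 CPM lay wholly above that of miR-362-5p. In EC replicate 1, however, miR-532-3p at 250 CPM was above miR-188-5p at 241. In EC replicate 2, miR-532-3p at 64.3 CPM was below miR-362-5p at 139.5. A second gap followed miR-532-3p, again in 6 of 6 libraries. Below it came miR-501-5p at 4.91 CPM and miR-362-3p at 4.56, which did not differ beyond their spread, then miR-188-3p at 1.59 and miR-500-5p at 0.417.

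**Figure D1:**
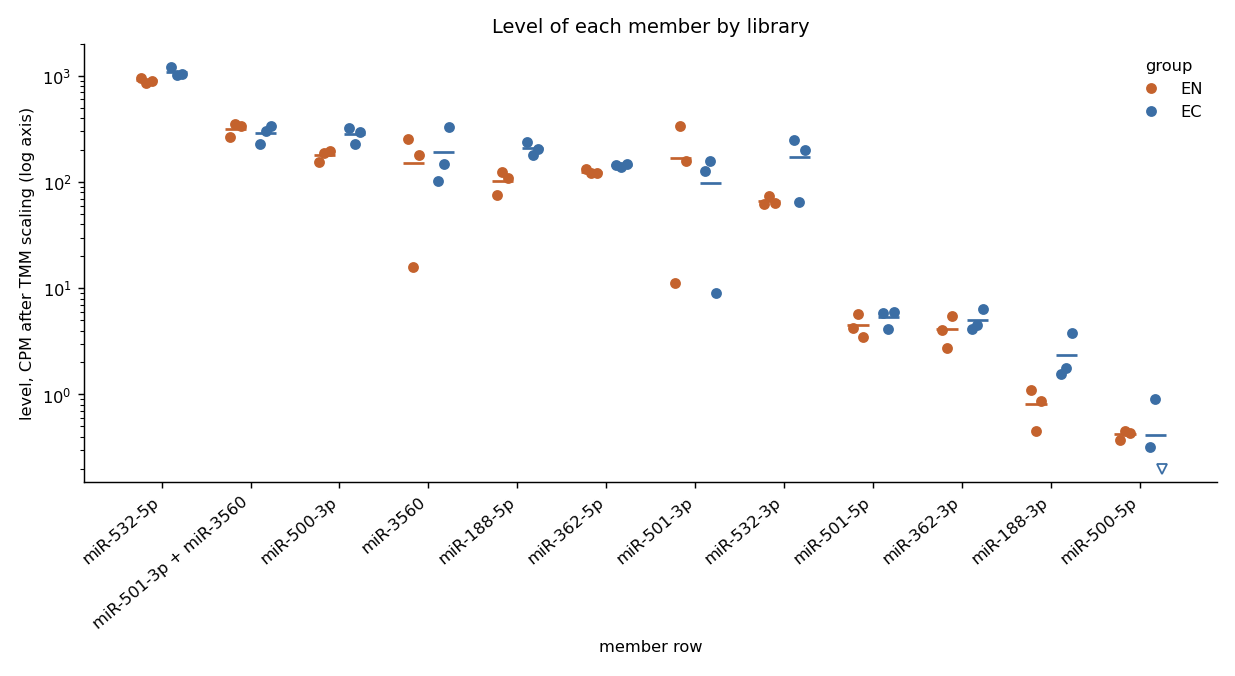
Level of each member row in CPM (log axis) in the 3 EN and 3 EC libraries, in order of mean level, with bars for the group means and an open triangle for a count of 0. MiR-532-5p stands near 1002 CPM, the summed pair, its 2 rows and 4 other members have means in a middle band, and 4 minor strands lie below 10 CPM.

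MiR-532-5p, known in human cancer cells as a regulator of the transcription factor RUNX3, stood at 966, 865 and 899 CPM in EN replicates 1, 2 and 3 and at 1216, 1031 and 1035 CPM in EC replicates 1, 2 and 3. The EN libraries were lower than the EC libraries without overlap, by a small margin. The log2 fold change was -0.27 (SE 0.12).

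MiR-188-5p, which in rat hippocampal neurons is known to target neuropilin-2, a semaphorin receptor, stood at 76.4, 124 and 110 CPM in EN replicates 1, 2 and 3. In EC replicates 1, 2 and 3 it stood at 241, 181 and 207 CPM. The highest EN library was below the lowest EC library, and EN replicate 1 was the lowest of all 6. The log2 fold change was -1.02 (SE 0.21), the value that was known when the group was chosen. Its 3p strand had 6, 2 and 4 counts in EN and 10, 11 and 25 counts in EC, too few to enter the fit.

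MiR-500-3p stood at 154, 190 and 194 CPM in EN replicates 1, 2 and 3 and at 323, 227 and 297 CPM in EC replicates 1, 2 and 3. Here too the EN libraries lay below the EC libraries, with EC replicate 2 closest to them. The log2 fold change was -0.65 (SE 0.18). The 5p strand of miR-500 had 2 counts in each EN library and 0, 2 and 6 counts in the EC libraries. The count of 0 in EC replicate 1 allows up to 0.463 CPM, taking a floor of 3 counts.

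MiR-362-5p, known in human liver cancer cells to target the deubiquitinase CYLD, was the steadiest of the middle band. It stood at 133, 122 and 121 CPM in EN replicates 1, 2 and 3 and at 144, 139.5 and 148 CPM in EC replicates 1, 2 and 3. The groups did not overlap, and the log2 fold change was -0.20 (SE 0.13). Its 3p strand stood at 4.10 ± 1.37 CPM in EN and 5.02 ± 1.22 CPM in EC (SD, n = 3), with overlapping groups.

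MiR-532-3p, the lesser strand of the miR-532 hairpin, stood at 62.7, 73.6 and 64.2 CPM in EN replicates 1, 2 and 3 and at 250, 64.3 and 199.9 CPM in EC replicates 1, 2 and 3. EC replicate 2 lay among the EN libraries, and the other EC libraries were far above them. The log2 fold change was -1.36 (SE 0.48). It was -0.98 without EC replicate 1, -1.73 without EC replicate 2 and -1.22 without EC replicate 3. The row was not called by edgeR's test (adjusted p = 0.168), and of the alternatives run it was called only without EC replicate 2 (adjusted p = 0.00382) and by DESeq2 (adjusted p = 0.00637), where the other alternatives gave adjusted p from 0.0606 to 0.412. EC replicate 2 was also the lowest EC library for miR-188-5p, miR-500-3p, miR-362-5p and miR-501-5p, by smaller margins. For miR-532-5p it stood at 1031 CPM, nearly level with EC replicate 3 at 1035 CPM. The lowest EC library of each remaining member was replicate 1 or 3.

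MiR-501-3p, reported in rodent hippocampal neurons to act on the glutamate receptor subunit GluA1, stood at 11.1, 334 and 159 CPM in EN replicates 1, 2 and 3 and at 128, 157 and 9.01 CPM in EC replicates 1, 2 and 3. MiR-3560 stood at 253, 16.0 and 180 CPM in EN replicates 1, 2 and 3 and at 102, 147 and 331 CPM in EC replicates 1, 2 and 3. MiR-501-3p was low where miR-3560 was high in EN replicate 1 and EC replicate 3, and the reverse held in EN replicate 2. Over all 6 libraries the highest level of miR-501-3p was 37.1 times the lowest, and that of miR-3560 was 20.7 times the lowest.

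Summed, the pair stood at 265, 350 and 339 CPM in EN replicates 1, 2 and 3 and at 231, 304 and 340 CPM in EC replicates 1, 2 and 3. The sum was far steadier than either row, with a coefficient of variation of 15.8 percent over the 6 libraries, where miR-501-3p had 90.2 percent and miR-3560 had 64.7 percent. The groups overlapped, and the log2 fold change of the sum was 0.12 (SE 0.19). That value was -0.21 (SE 0.17) with the library totals implied by RPM, and -0.017 without EC replicate 1, so its direction was not fixed. Taken singly, miR-501-3p came out at 0.78 (SE 1.55) and miR-3560 at -0.37 (SE 1.08) on the log2 scale. Neither can be read as a change of 1 strand, since no source used here states the strand rule of the counting.

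The share of miR-3560 in the pair was 95.8 percent (95 percent Wilson interval 94.6 to 96.7) in EN replicate 1, 4.57 percent (3.63 to 5.73) in EN replicate 2 and 53.1 percent (50.6 to 55.6) in EN replicate 3. In the EC libraries it was 44.4 percent (41.9 to 46.9) in replicate 1, 48.4 percent (46.2 to 50.6) in replicate 2 and 97.4 percent (96.6 to 97.9) in replicate 3. In 3 libraries the pair was split nearly evenly and in the other 3 nearly all of it was given to 1 row. Even splits were found in EN replicate 3 and EC replicates 1 and 2. Intervals and floors cover counting error only, since reads are not independent molecules.

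**Figure D2:**
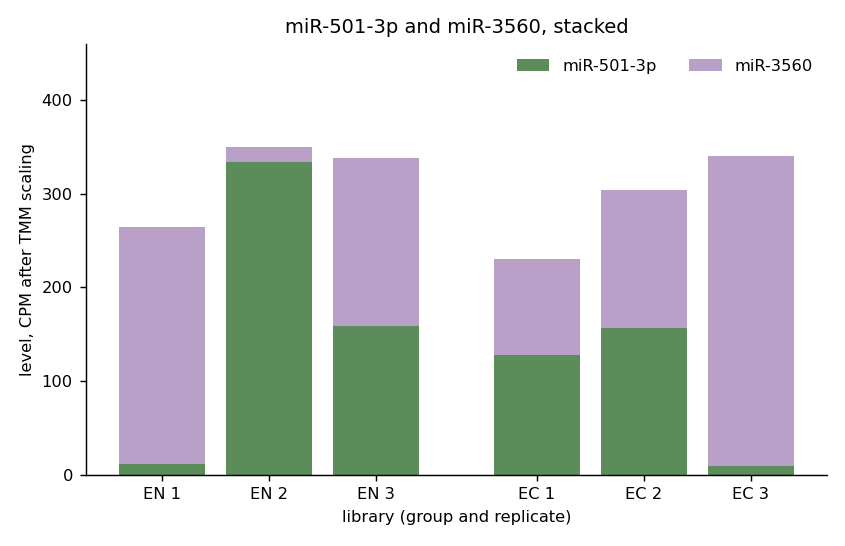
Stacked level in CPM of miR-501-3p (green) and miR-3560 (purple) in each library, EN replicates left and EC replicates right. The total bar lies between 231 and 350 CPM, while the green part runs from 9.01 to 334 CPM.

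Which strand of each hairpin was kept was nearly the same in both groups for miR-188, miR-362 and miR-500. The 5p strand took 98.6 to 99.6 percent of miR-188 counts in EN and 98.2 to 99.4 percent in EC. For miR-362 it took 95.7 to 97.8 percent in EN and 95.9 to 97.2 percent in EC. MiR-500 went the other way, with a 5p share of 0.225 to 0.240 percent in EN and 0 to 0.308 percent in EC.

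The strand shares of miR-501 depended on whether its antisense row was counted with it. The 5p share was 1.68 to 27.7 percent in EN and 2.57 to 39.8 percent in EC when only miR-501-3p was counted. With miR-3560 added to the 3p strand it was 1.02 to 1.61 percent in EN and 1.35 to 2.48 percent in EC. Whether the counts of miR-3560 are reads of miR-501-3p was not tested. MiR-501-5p itself stood at 4.49 ± 1.12 CPM in EN and 5.32 ± 1.02 CPM in EC (SD, n = 3), with a log2 fold change of -0.25 (SE 0.29). The miR-532 hairpin had a 5p share of 93.9, 92.2 and 93.3 percent in EN replicates 1, 2 and 3 and of 82.9, 94.1 and 83.8 percent in EC replicates 1, 2 and 3. In strand use as in level, EC replicate 2 lay with the EN libraries and apart from the other EC libraries.

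A ratio of 2 members within a library does not depend on how libraries are scaled. Per 100 counts of miR-532-5p there were 7.91, 14.3 and 12.2 counts of miR-188-5p in EN replicates 1, 2 and 3, and 19.8, 17.6 and 19.97 in EC replicates 1, 2 and 3. The EN ratios of these neighbouring hairpins all lay below the EC ratios. MiR-500-3p gave 15.9, 22.0 and 21.6 counts per 100 in EN and 26.6, 22.0 and 28.7 in EC, where EN replicate 2 at 21.96 and EC replicate 2 at 22.04 nearly met.

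MiR-362-5p gave 13.8 ± 0.33 counts per 100 of miR-532-5p in EN and 13.2 ± 1.28 in EC (SD, n = 3), with overlapping groups. The summed pair gave 35.2 ± 6.89 in EN and 27.1 ± 7.25 in EC, again overlapping. Relative to miR-532-5p, then, the EN values lay clearly below the EC values only for miR-188-5p, a row by which the group was chosen. For miR-500-3p the groups nearly met, at 21.96 and 22.04, and whether that gap exceeds counting error was not tested. They overlapped for miR-362-5p, the summed pair and miR-532-3p, which gave 6.49 to 8.51 in EN and 6.24 to 20.6 in EC. The share of all rows whose ratios separate in this way was not computed.

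**Figure D3:**
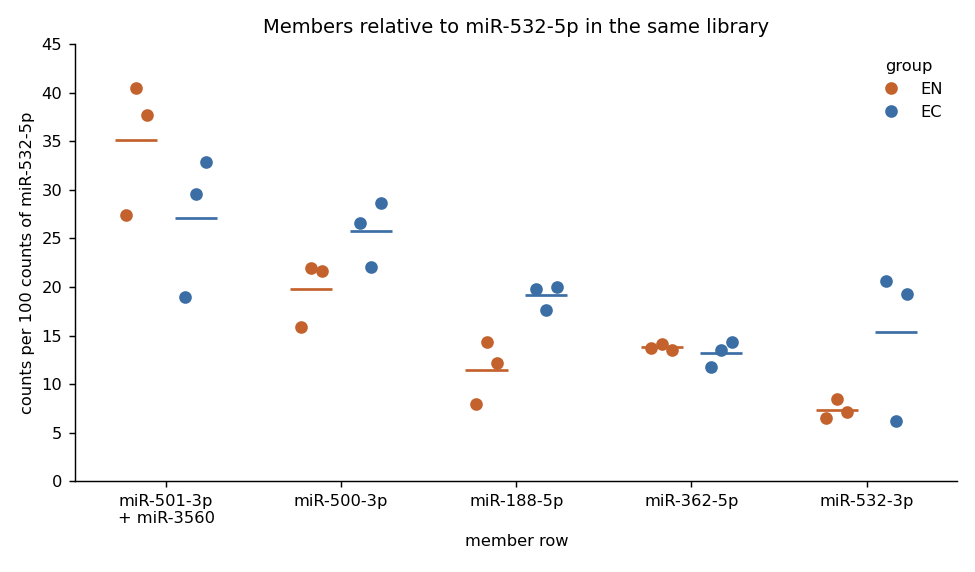
Counts of 5 members per 100 counts of miR-532-5p in the same library, with points for libraries and bars for group means, EN left of EC. The EN points of miR-188-5p lie at 7.91 to 14.3 and its EC points at 17.6 to 19.97, while those of miR-362-5p and of the summed pair overlap between groups.

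The profiles of members across libraries were compared by the mean absolute difference of log2 levels, each centred on its own mean, over the 6 libraries. MiR-532-5p and miR-362-5p were the closest pair among the 5 rows of 10 CPM or more and the summed pair, at 0.063. MiR-188-5p was nearest to miR-500-3p, at 0.20, and differed from miR-532-5p, its neighbour in the genome, by 0.39. MiR-532-3p and the summed pair were farthest apart, at 0.85. The closest pair in profile, miR-532-5p and miR-362-5p, are not adjacent in the genome, since miR-188 lies between them.

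Among 268 known rows of 10 CPM or more outside the group, those nearest to the profile of the summed members were miR-30b-5p, miR-193b-3p, miR-147, miR-92a-1-5p and miR-151-5p, at 0.055 to 0.098, where the median over the 268 was 0.25. MiR-30b-5p stood at 1611 ± 106.1 CPM in EN and 2168 ± 195 CPM in EC (SD, n = 3). Nearest to miR-188-5p were miR-24-2-5p, miR-106b-5p and miR-126a-5p, at 0.17 to 0.18, where the median was 0.52. Each of these was itself called lower in EN by edgeR (adjusted p = 0.0228, 0.0228 and 0.0471), as were 1.91 percent of all rows. They were picked by likeness to miR-188-5p, so nothing is read from those calls. MiR-106b-5p stood at 75.6 ± 4.03 CPM in EN and 136 ± 10.2 CPM in EC.

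Of the 11 rows, 9 passed the filter on low counts and were tested with all other rows in edgeR (quasi-likelihood test), with Benjamini-Hochberg adjustment over 628 rows. MiR-188-5p was called lower in EN at an adjusted p under 0.05, as were 1.91 percent of all rows, with 2.07 percent called higher and 3.98 percent in either direction. This call belongs to the contrast by which the group was chosen, and nothing is read from it. It was lost without any 1 library other than EC replicate 2, that is without EN replicate 1, 2 or 3 or EC replicate 1 or 3, with adjusted p of 0.0512 to 0.161 and log2 fold changes of -1.14 to -0.85.

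Log2 fold changes were negative in 8 of the 9 tested members, against 49.2 percent of all rows, and the 3 EN libraries lay below the 3 EC libraries in 4 of the 9, miR-188-5p, miR-500-3p, miR-532-5p and miR-362-5p, against 14.6 percent of all rows. Both counts include miR-188-5p, which was known to differ when the group was chosen, and without it they were 7 of 8 and 3 of 8. The member genes lie within the bounds of 1 gene, with miR-3560 on the opposite strand to the rest, and the pair shares its bases. These were therefore not taken as separate observations, and nothing is read from the counts. The median log2 fold change of the members was -0.29, that of all rows 0.020. With the library totals implied by RPM the median of all rows was -0.30 and that of the members -0.605. Under that scaling the log2 fold change of miR-188-5p was -1.36 (SE 0.20), that of miR-500-3p -0.99 (SE 0.17), that of miR-532-5p -0.59 (SE 0.15) and that of miR-362-5p -0.53 (SE 0.15), and these 4 were called lower, as were 14.2 percent of all rows tested with that scaling.

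**Figure D4:**
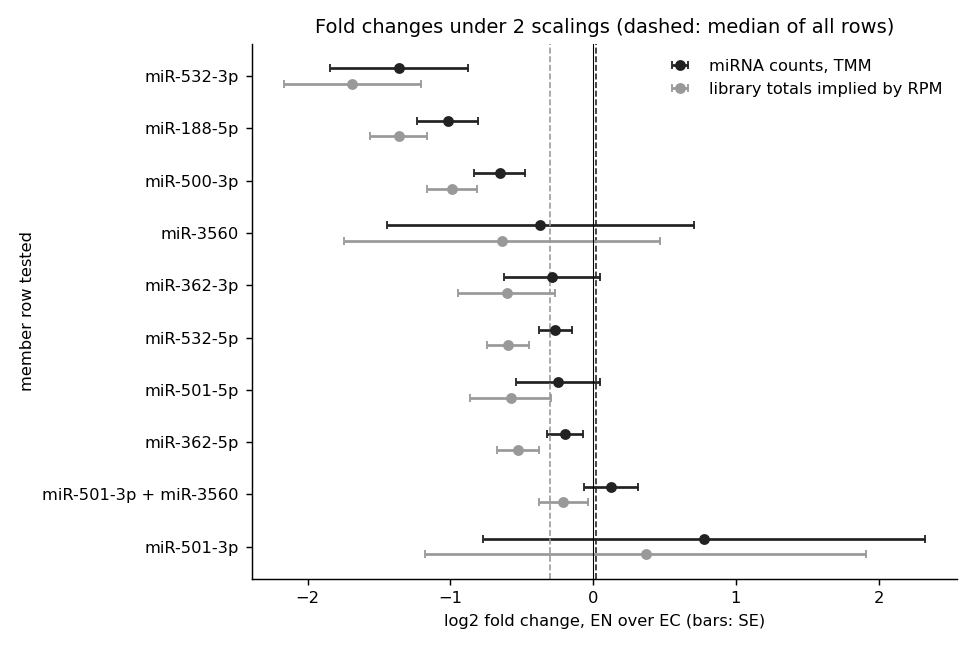
Log2 fold change of EN over EC with its SE for the tested members and the summed pair, scaled by miRNA counts with TMM factors (black) or by the library totals implied by RPM (grey), with dashed lines at the medians of all rows. MiR-532-3p and miR-188-5p lie farthest to the left under both scalings, and the summed pair lies at 0.12 under the first and at -0.21 under the second.

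Other miRNA rows of the X chromosome were taken as a comparison, those whose genes in the RefSeq table all lie on it. Of 79 such rows 55 were tested, with 23 positive and 32 negative log2 fold changes and a median of -0.058, beside 0.020 for all rows. In the same edgeR fit, with Benjamini-Hochberg adjustment, 1 was called higher, miR-222-3p at 0.48 (SE 0.067, adjusted p = 0.0167), and 1 lower, miR-374-5p at -0.75 (SE 0.13, adjusted p = 0.0290). The 3 EN libraries lay below the 3 EC libraries in 5 of the 55 and above them in 8, where the shares of all rows were 14.6 percent below and 15.0 percent above. MiR-222-3p, which shares a transcript with miR-221 and restrains the cell cycle inhibitor p27, was the most abundant of them, at 77325 ± 3538 CPM in EN and 55258 ± 1797 CPM in EC (SD, n = 3). MiR-221-3p stood at 7284 ± 1357 CPM in EN and 5110 ± 564 CPM in EC, and miR-384-5p at 3946 ± 725 CPM in EN and 4643 ± 317.5 CPM in EC, neither of them called.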

How the data were processed

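Small RNA of 6 PC12 libraries (3 EN, 3 EC) was analysed from 1 deposited table. The authors deposited whole-number read counts per mature miRNA, with an RPM value beside each. RPM as deposited by the authors equals the count divided by 1 total per library and scaled, to within 0.00176. The submitters' processing notes name HISAT2 2.0.5 and Rnor 6.0; the counter, annotation, strand rule and handling of reads with several matches are stated in none of the sources used here. Members and lists were chosen with earlier results of these data known.

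Counts of all rows were fitted with edgeR 4.0.16 in R 4.3.3 (filterByExpr, TMM, quasi-likelihood test, robust, Benjamini-Hochberg over 628 rows, threshold 0.05), EN against EC. SE is the absolute log2 fold change over the square root of F. The test was also run on simulated data with less spread than these libraries and larger changes than those of the members. That run therefore does not show how well the test performs on these rows. Named were all members, the rows nearest in profile (pseudocount 0.5 CPM, mean of 10 CPM or more) and, of other X chromosome rows, those called and the 3 most abundant; 575 of 584 known rows matched a RefSeq gene. Alternatives were RLE factors, no factors, RPM totals, no filter, a mean of 10 CPM, DESeq2 1.42.0, limma-voom (limma 3.58.1), the replicate number as block, leaving out each library, known rows alone and the pair summed. Other alternatives for the pair were added after seeing the data. Python 3.11.15, scipy 1.17.1 and matplotlib 3.10.9 served tables, intervals and figures.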

Additional observations from a re-analysis of the deposited data

How the results depend on the processing

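Of all 628 rows, 25 were called, 13 higher and 12 lower. These were 101 of 619 with library totals implied by RPM (88 lower), 44 with no filter (21 higher, 23 lower), 70 with DESeq2 (35 higher, 35 lower), 16 with limma-voom (7 lower), and 2 to 39 without 1 library (2 to 23 higher, 0 to 26 lower). Member calls were 1 in the fit reported, where 3.98 percent of all rows were called. They were 4 with RPM totals (101 of 619 rows called), 2 with no filter (44 rows called) and 3 with DESeq2 (70 rows called). They were 0 with limma-voom (16 rows called) and 0 to 3 without 1 library (2 to 39 rows called). The calls over all rows changed with the setting too, so the member counts are not read as results about the members. With no filter more than 628 rows were tested, so its counts cannot be set directly against the others. The members' median of -0.29 was -0.605 with RPM totals and -0.53 to -0.16 without 1 library. A replicate block gave 2 calls (1 higher, 1 lower) and 0 of members. Libraries of equal number had deviations from their group means that correlated at 0.086, -0.039 and 0.015. The highest correlation was that of EN replicate 2 with EC replicate 3 (0.108). The labels do not say what libraries of equal number share, and a common batch was not tested. Directions reversed for miR-501-3p (-0.20 without EN replicate 2, range -0.20 to 1.31) and miR-3560 (0.30 without EC replicate 3, 0.21 without EN replicate 2, range -0.97 to 0.30). The direction of the summed pair reversed too (-0.21 with RPM totals, -0.017 without EC replicate 1, range -0.21 to 0.26 over the 8 alternatives run for it). The other tested members kept their sign in all alternatives run. Beyond the changed divisor of RPM totals and the rows or samples removed, the cause was not tested. The order of members within a library, strand shares and ratios of members do not pass through the scaling or the test. Depth limits miR-188-3p and miR-500-5p, at 25 counts or fewer.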
